A study of Homo sapiens with 16 samples.

Results

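The genes described here belong to the methionine, S-adenosylmethionine (SAM) and PRMT5 axis and to the 9p21 locus on chromosome 9. They are MTAP, CDKN2A and CDKN2B at 9p21, MAT2A, MAT2B and AHCY of SAM synthesis and turnover, and PRMT5 with its cofactors WDR77 and RIOK1. These 9 genes were taken by symbol out of the 63677 gene identifiers of the count table, and MAT2A was chosen by its fall on gemcitabine in both lines. Values of gemcitabine alone against control therefore chose the set and are given as a description, with no test.

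RNA was sequenced from 2 human pancreatic ductal adenocarcinoma cell lines, Mia-PaCa-2 and PANC-1, cultured in DMEM with serum. Each line was kept as a 24 h control, called untreated here, or was exposed for 24 h to 40 nM gemcitabine, to 50 µM genistein, or to both at these doses. The study prepared genistein in DMSO, and the labels do not say whether the controls received DMSO. Gemcitabine is a deoxycytidine analog that blocks DNA synthesis, and genistein is a plant isoflavone. Each of the 8 groups has 2 libraries, described by the study as biological replicates, which makes 16 poly-A libraries in all.

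MAT2A makes SAM, the methyl donor of the cell, from methionine and ATP, and MAT2B is its regulatory subunit. AHCY hydrolyses S-adenosylhomocysteine, the product left after each methyl transfer. PRMT5 uses SAM to dimethylate arginines symmetrically on histones, spliceosomal Sm proteins and other targets, and works in a complex with WDR77 (MEP50), while RIOK1, an atypical kinase of 40S ribosome maturation, competes with the adaptor CLNS1A for PRMT5 and brings it other substrates. MTAP cleaves methylthioadenosine, a by-product of polyamine synthesis that inhibits PRMT5 when it builds up. MTAP lies next to CDKN2A and CDKN2B, which encode inhibitors of cyclin-dependent kinases 4 and 6, and the locus is often deleted in pancreatic cancer.

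MAT2A mRNA is itself controlled by SAM through METTL16, a methyltransferase that reads hairpins in the 3′ untranslated region. The motif of these hairpins, TACAGAGAA in DNA letters, occurred 5 times in the 1512 bases of the 3′ untranslated region of ENST00000306434, the main MAT2A transcript. The 5 sites are printed because they are the sequence that sets MAT2A apart from the other members. Each is given from GRCh37 on the plus strand, with the motif in capitals and 10 bases on either side.
MAT2A site 1, chr2:85770925-85770953: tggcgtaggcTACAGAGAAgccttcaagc
MAT2A site 2, chr2:85771712-85771740: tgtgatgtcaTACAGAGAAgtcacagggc
MAT2A site 3, chr2:85771897-85771925: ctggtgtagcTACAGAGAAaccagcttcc
MAT2A site 4, chr2:85772012-85772040: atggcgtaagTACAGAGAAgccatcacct
MAT2A site 5, chr2:85772235-85772263: gctggtgtggTACAGAGAAgccagcttgt
The motif was searched on the transcribed strand as an exact match of its 9 letters, so sites that differ from it by a base were not counted. Of 19775 annotated 3′ untranslated regions, 323 (1.63%) held it at least once, and MAT2A was the 1 gene with 5 or more. Since the motif is that of the MAT2A hairpins, this rank follows in part from the choice of motif. Among the 8023 regions nearest to MAT2A in length, from 0.5 to 2 times, 1.48% held it. It was found 0 times in the 3′ untranslated regions of MTAP, MAT2B, PRMT5, WDR77, RIOK1 and AHCY. A match of letters is a description and was not tested as a binding site here.

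Libraries held 12943482 to 31991860 reads counted on genes. Replicates differed by more than sampling noise in every group, with a chi-square per degree of freedom from 2.86 in PANC-1 genistein to 35.19 in PANC-1 controls. Replicates also differed in how counts moved with the GC content of genes. The slopes per 10 points of GC were 0.29 and -0.07 log2 units in the 2 PANC-1 controls and -0.16 and 0.23 in the 2 PANC-1 libraries with both drugs, and over the Mia-PaCa-2 libraries they ran from -0.23 in control replicate 1 to 0.29 in replicate 2 of both drugs. Epithelial keratins KRT8 and KRT18 were at 369 to 1076 FPKM across the 16 libraries. KRT19 ran from 56.5 to 204 FPKM in Mia-PaCa-2 and from 282 to 749 in PANC-1. KRT7 was at 0.17 to 1.695 FPKM in Mia-PaCa-2 and 3.95 to 21.1 in PANC-1. CDH1 was at 0 to 0.021 FPKM in Mia-PaCa-2 and 2.7 to 13.2 in PANC-1. Of the mesenchymal markers, VIM was at 1398 to 3875 FPKM, and ZEB1 at 1.825 to 4.11 in Mia-PaCa-2 and 2.23 to 5.15 in PANC-1. EPCAM was listed at 0 in all Mia-PaCa-2 libraries and ran from 7.71 to 12.8 FPKM in PANC-1. Of the other cell markers, PTPRC, PECAM1, PRSS1, CPA1, INS, GCG, DCN and LUM did not exceed 0.015 FPKM, and CD68 ran from 14.2 to 37.6 FPKM in Mia-PaCa-2 and from 108.3 to 221 FPKM in PANC-1.

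At 9p21, CDKN2A (chr9:21967751-21995300, minus strand) and CDKN2B (chr9:22002902-22009304, minus strand) had 0 reads and 0 FPKM in all 16 libraries. Over the 8 Mia-PaCa-2 libraries, 0 of 127546441 reads allows up to 0.0235 CPM (reads scaled to the total of the libraries) for either gene, and over the 8 PANC-1 libraries 0 of 148129191 reads allows up to 0.02025 CPM. These limits take 3 reads as the most that a count of 0 allows and cover counting error only. Neither inhibitor was detectable under any treatment in either line.

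MTAP (chr9:21802635-21937650, plus strand) was listed differently by the counts and the FPKM values. In Mia-PaCa-2 it had 0 reads in all 8 libraries, and its FPKM was at most 0.111. In PANC-1 it had 0 to 2 reads per library, 5 in all, while its FPKM was 9.92 and 14.4 in the controls, 17.5 and 17.6 on gemcitabine, 15.4 and 17.0 on genistein, and 17.6 and 19.6 on both. The PANC-1 control libraries were the lowest of the 8, and every PANC-1 library lay above every Mia-PaCa-2 library. No test across treatments was made, because the counts did not pass the low-count filter.

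The isoform table placed the PANC-1 signal of MTAP at the start of the gene. Of 12 listed MTAP isoforms, 2 exceeded 1 FPKM in PANC-1: ENST00000427788, at 8.33 to 11.3 FPKM, and ENST00000580675, at 1.58 to 8.80 FPKM. The first ends 20 bases into exon 5 of the 8-exon gene model and the second ends just after exon 2. All 8 isoforms with an exon from the 6th on, including the full-length forms, stayed at or below 0.042 FPKM in every library. The boundary is shown by exon 4, which ENST00000427788 holds whole, and exon 5, in which capitals mark the bases it holds (GRCh37, plus strand, coding sequence).
MTAP exon 4, chr9:21818034-21818201: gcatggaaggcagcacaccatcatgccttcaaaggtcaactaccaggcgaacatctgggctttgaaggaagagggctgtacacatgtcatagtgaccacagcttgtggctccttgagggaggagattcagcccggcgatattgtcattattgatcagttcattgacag
MTAP exon 5, chr9:21837907-21838009: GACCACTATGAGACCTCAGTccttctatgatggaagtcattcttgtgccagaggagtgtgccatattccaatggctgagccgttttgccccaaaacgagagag

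**Figure D1:**
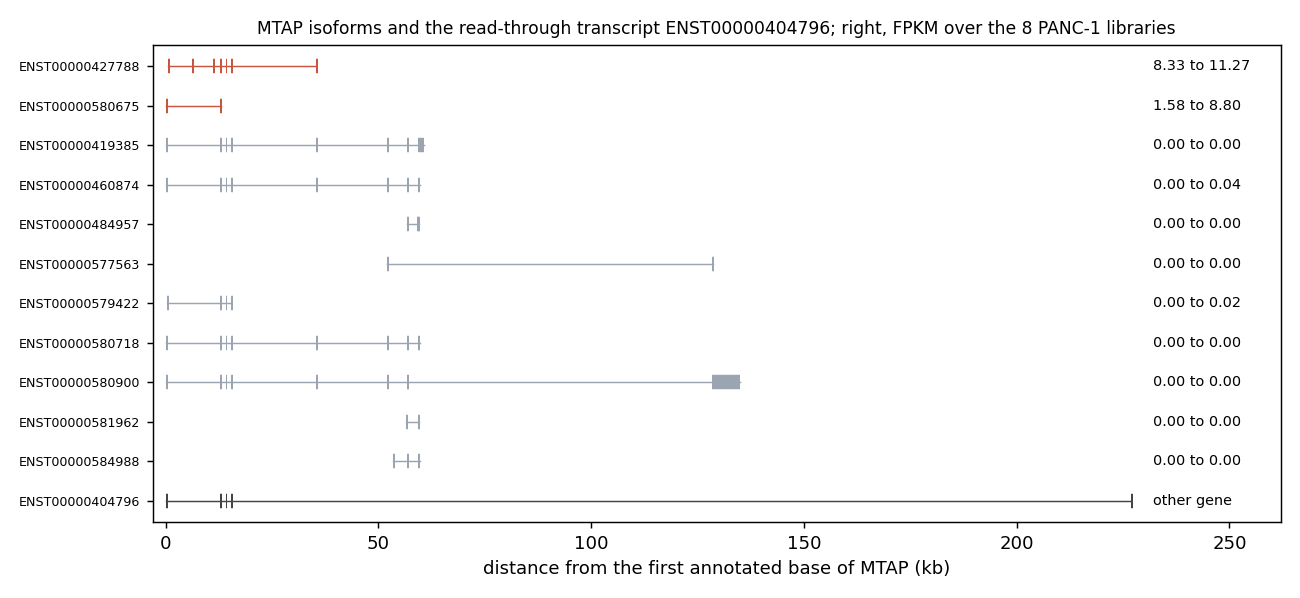
Exons (thick, widened to at least 0.45 kb so that they can be seen) and introns (thin) of the 11 MTAP isoforms with an annotated structure, by distance from the first annotated base of MTAP in kb, with their FPKM range over the 8 PANC-1 libraries on the right and the read-through transcript ENST00000404796 at the bottom. The 2 isoforms above 1 FPKM, in red, end before the 6th exon of the gene model.

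Exons 1 to 4 of MTAP are also exons of ENST00000404796, a transcript of another gene (ENSG00000264545) that reads through from MTAP to chr9:22029593. Its gene had 0 reads in all 16 libraries and at most 0.000837 FPKM. How the counting assigned reads in exons that 2 genes share is not given in the sources used here. ENST00000427788 has 439 bases outside any other gene of the count table, and its FPKM would place 57.3 to 140.8 reads on them in a PANC-1 library. The count table held 0 to 2. Whether PANC-1 transcribed the first exons of MTAP could not be settled from these files, and in both lines no full-length MTAP isoform rose above 0.042 FPKM.

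Genes on both sides of MTAP separated the lines by reads, while MTAP itself had 0 reads in Mia-PaCa-2 and 0 to 2 per library in PANC-1. Between positions 20000000 and 26000000 of chromosome 9 the count table held 43 protein-coding or long non-coding genes that the annotation places there. In Mia-PaCa-2, 0 of the 43 had more than 3 reads in all 8 libraries, and none had more than 1 read in any library. In PANC-1, 8 of the 43 did, and they lay on both sides of the stretch from MTAP to RP11-408N14.1, in which none of the 43 exceeded 2 reads in any library. At lower positions than MTAP, FOCAD had 421 to 1128 reads per PANC-1 library and KLHL9, a substrate adaptor of a ubiquitin ligase, had 193 to 583. At higher positions, TUSC1 had 65 to 169. In Mia-PaCa-2 each of the 3 had 0 or 1 read. The exceptions in Mia-PaCa-2 were 3 processed pseudogenes, KHSRPP1, UBA52P6 and RP11-370B11.1, with 4 to 354 reads per library, whose sequence is near that of genes elsewhere and whose counts are uncertain. Read counts do not measure the number of gene copies.

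**Figure D2:**
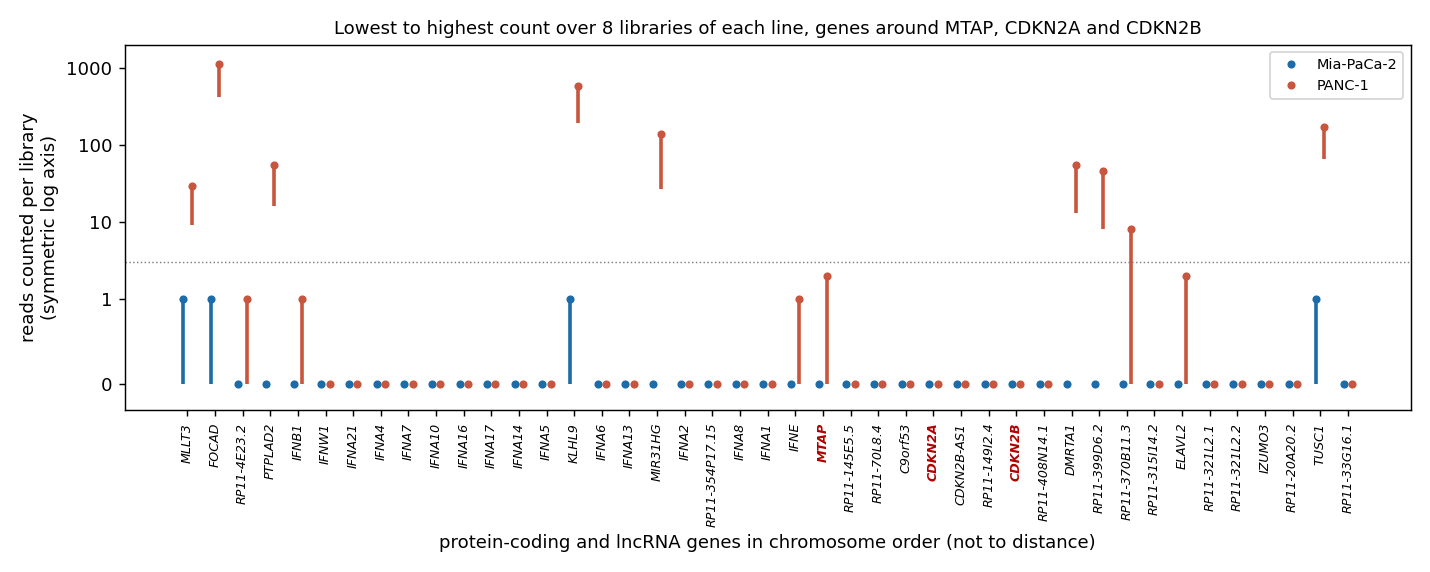
Lowest to highest number of reads over the 8 libraries of each line (vertical bars, the point marking the highest; symmetric log axis) for the 43 protein-coding and long non-coding genes between 20000000 and 26000000 on chromosome 9, in order of position, with the members in red and the limit of 3 reads dotted. Mia-PaCa-2 stays at 0 or 1 throughout, and PANC-1 is above 3 reads in all libraries at 8 genes.

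MAT2A (chr2:85766291-85772404, plus strand) was the member that fell with gemcitabine in both lines. In Mia-PaCa-2 its level was 346 and 322 FPKM in the controls, 156 and 166 on gemcitabine, 235 and 244 on genistein, and 184 and 167 on both drugs. No 2 groups overlapped, and the order was control, genistein, both, gemcitabine, the last 2 being separated by a gap smaller than the spread within the group given both drugs. In PANC-1 it was 227 and 258 FPKM in the controls, 122 and 132 on gemcitabine, 218 and 233 on genistein, and 139 and 121 on both. Here control and genistein overlapped, as did gemcitabine and both drugs.

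The fold change of MAT2A on gemcitabine alone was 2.23-fold down in Mia-PaCa-2 (log2 change -1.15 ± 0.08, SE) and 2.05-fold down in PANC-1 (-1.03 ± 0.10), values the choice of the gene rests on. Gemcitabine added to genistein compares the means of other libraries and was tested. The scaling and the spread in that fit still came from all 8 libraries of the line, those included. MAT2A fell 1.45-fold in Mia-PaCa-2 (log2 change -0.54 ± 0.08, adjusted p = 0.000156, limma-voom) and 1.90-fold in PANC-1 (-0.93 ± 0.11, adjusted p = 0.00429). The PANC-1 call was lost without either genistein library (log2 change -0.997, adjusted p = 0.0625 without replicate 1, and -0.82, adjusted p = 0.0932 without replicate 2), when the share of all genes that passed in that comparison dropped from 8.18% to 0.154% and 0.166%. The fall with added gemcitabine was larger in PANC-1 by 0.42 ± 0.12 on the log2 scale (adjusted p = 0.0441), a difference that missed 0.05 in most alternatives (adjusted p up to 0.201, without PANC-1 genistein replicate 2). On genistein alone the log2 change of MAT2A was -0.44 ± 0.07 in Mia-PaCa-2 and -0.12 ± 0.10 in PANC-1. Genistein added to gemcitabine gave log2 changes of 0.18 ± 0.08 and -0.02 ± 0.11 in that order. These last 4 values share control or gemcitabine libraries with the contrast that chose MAT2A and were not tested.

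The main isoform of MAT2A followed the level of the gene. ENST00000306434, the transcript with the 5 motifs, made up 66.4% to 71.4% of the MAT2A FPKM in Mia-PaCa-2 libraries and 63.1% to 70.1% in PANC-1 libraries. Its mean level was 222 FPKM in Mia-PaCa-2 controls, 111.035 on gemcitabine, 165 on genistein and 125 on both, and 160, 80.4, 152 and 85.1 FPKM in PANC-1. Its share on gemcitabine was 68.8% and 69.0% in Mia-PaCa-2 against 66.4% and 66.6% in controls, and 63.1% and 63.3% in PANC-1 against 64.9% and 67.0%, so the share moved by a few points, in opposite directions. Of the annotated exon bases of MAT2A, 12.5% lie opposite exons of GGCX. The kit keeps strand, but the strand setting of the counting is not given in the sources used here, so reads of the pair could not be told apart in those bases.

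**Figure D3:**
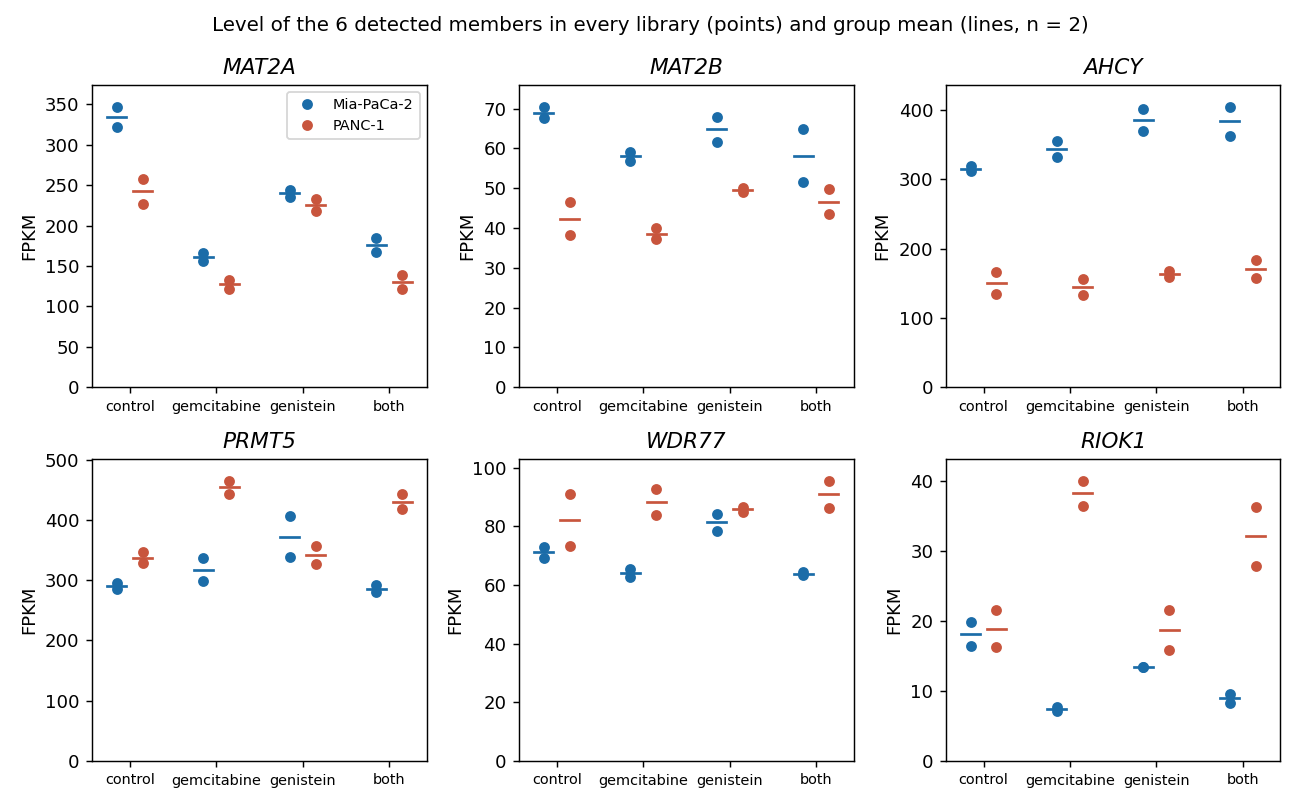
FPKM of the 6 members that passed the low-count filter in every library (points) with the mean of each group of 2 (lines), by treatment and cell line. MAT2A is lower in both gemcitabine groups of both lines, and RIOK1 is lower in Mia-PaCa-2 and higher in PANC-1 in the groups with gemcitabine.

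In all, 6 of the 9 members passed the low-count filter, MAT2A, MAT2B, AHCY, PRMT5, WDR77 and RIOK1, and to pass a comparison a gene needed an adjusted p no higher than 0.05, a log2 change of 0.4 or more in either direction and a mean above 1 FPKM in the treated group. When gemcitabine was added to genistein in Mia-PaCa-2, 4 of these 6 fell and 0 rose, where 31.5% of all 16064 genes passed, 14.9% lower and 16.6% higher. In PANC-1, 1 of 6 passed, MAT2A, where 8.18% of 16909 genes did, 4.31% lower and 3.87% higher. The 4 in Mia-PaCa-2 were RIOK1, PRMT5, WDR77 and MAT2A. Both counts include MAT2A, which was chosen by its fall on gemcitabine, so they cannot be weighed against the share of all genes. No other member passed in PANC-1.

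RIOK1 (chr6:7390026-7418270, plus strand) responded differently to added gemcitabine in the 2 lines. In Mia-PaCa-2 its level was 19.8 and 16.5 FPKM in controls, 7.75 and 7.13 on gemcitabine, 13.42 and 13.38 on genistein and 9.54 and 8.26 on both. In PANC-1 it was 16.3 and 21.5 FPKM in controls, 36.4 and 39.9 on gemcitabine, 15.8 and 21.5 on genistein and 36.3 and 27.8 on both. The untreated lines overlapped, and with gemcitabine present no Mia-PaCa-2 library exceeded 9.54 FPKM and no PANC-1 library was under 27.8 FPKM.

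Adding gemcitabine to genistein lowered RIOK1 1.90-fold in Mia-PaCa-2 (log2 change -0.92 ± 0.14, adjusted p = 0.000322). On the log2(FPKM + 1) scale this change was smaller, at -0.54 (adjusted p = 0.0297). In PANC-1 its log2 change was 0.58 ± 0.19 (1.49-fold, adjusted p = 0.0986), which did not pass, though it did under DESeq2 (adjusted p = 0.0227), with a correction for GC content (adjusted p = 0.00173) and without either control library (adjusted p = 0.0323 and 0.0326). With other libraries left out its adjusted p reached 0.334. The difference between the lines was 1.47 ± 0.23 on the log2 scale, a 2.76-fold difference in the response (adjusted p = 0.00175), where 8.8% of 17863 genes differed. It held in every alternative, with adjusted p at most 0.0171. Gemcitabine alone gave log2 values of -0.93 ± 0.13 in Mia-PaCa-2 and 0.66 ± 0.17 in PANC-1, set beside them with no test.

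PRMT5 (chr14:23389734-23398617, minus strand) and WDR77 (chr1:111982512-111991878, minus strand) are the enzyme and its obligate partner. Both fell in Mia-PaCa-2 when gemcitabine was added to genistein, by amounts near the fold limit. PRMT5 was at 295 and 285 FPKM in Mia-PaCa-2 controls, 299 and 336 on gemcitabine, 407 and 338 on genistein and 280 and 292 on both. The libraries with both drugs lay below both genistein libraries and overlapped the controls. Gemcitabine alone gave log2 values of -0.20 ± 0.09 for PRMT5 and -0.10 ± 0.10 for WDR77 in Mia-PaCa-2, set beside these with no test. PRMT5 fell by 0.42 ± 0.08 (log2, adjusted p = 0.00171) when gemcitabine was added to genistein, and by 0.31 (adjusted p = 0.00911) with library size as the only scaling, under the fold limit. Without Mia-PaCa-2 genistein replicate 1, its highest library, the log2 change was -0.35 (adjusted p = 0.0166), also under that limit.

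WDR77 was at 72.9 and 69.3 FPKM in Mia-PaCa-2 controls, 65.6 and 62.5 on gemcitabine, 84.1 and 78.5 on genistein and 64.3 and 63.4 on both. It was highest in both genistein libraries, which overlapped with no other group. WDR77 fell by 0.47 ± 0.10 (log2, adjusted p = 0.00216), and by 0.36 with library size as the only scaling.

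In PANC-1 the pair did not pass. PRMT5 was at 346 and 328 FPKM in controls, 444 and 465 on gemcitabine, 326 and 357 on genistein and 443 and 418 on both, so that the 4 libraries with gemcitabine lay above the 4 without it on the FPKM scale. Its CPM, the reads scaled to the library total alone, separated the same libraries in the same direction. With the TMM scaling used for the tests, its log2 change with added gemcitabine was 0.14 ± 0.09 (adjusted p = 0.366, limma-voom). The difference between the lines was 0.53 ± 0.13 (adjusted p = 0.0274), and missed 0.05 with a replicate block (adjusted p = 0.0618) and without any 1 of 6 libraries: Mia-PaCa-2 genistein replicate 1, both PANC-1 genistein libraries, both Mia-PaCa-2 libraries given the 2 drugs and replicate 2 of PANC-1 given the 2 drugs (adjusted p from 0.0569 to 0.102). WDR77 ranged from 73.1 to 95.4 FPKM over the 8 PANC-1 libraries with all 4 groups overlapping, and had a log2 change of -0.09 ± 0.13 (adjusted p = 0.698). Its difference between the lines was 0.35 ± 0.17 (adjusted p = 0.254), which passed only with a correction for GC content (0.52, adjusted p = 0.0146; with the replicate block added, 0.0295).

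FPKM and counts disagreed on how abundant PRMT5 is. As CPM per kilobase of the transcript that the annotation calls canonical, PRMT5 averaged 81.2 in Mia-PaCa-2 controls and 89.2 in PANC-1 controls, against 290 ± 6.66 and 337 ± 13.1 FPKM (SD, n = 2). For AHCY the scales were close, at 315 and 143 against 316 ± 4.90 and 151 ± 22.9 FPKM. WDR77 had 23.7 and 29.1 on the first scale, against 71.1 ± 2.54 and 82.1 ± 12.7 FPKM. The canonical transcript of PRMT5, ENST00000324366, was not among its isoforms above 1 FPKM. That of WDR77, ENST00000235090, held 18.7% to 28.0% of the WDR77 FPKM in Mia-PaCa-2 libraries and 18.6% to 26.2% in PANC-1 libraries. Of the exon bases of PRMT5, 28.2% lie opposite PRMT5-AS1, and 25.1% of those of WDR77 are shared on the same strand with RP11-552M11.4. The ranking of PRMT5 and WDR77 against the other members therefore depends on the scale.

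MAT2B and AHCY did not pass in either line when gemcitabine was added to genistein with all libraries in the fit. MAT2B (chr5:162930120-162946564, plus strand) was at 70.4 and 67.6 FPKM in Mia-PaCa-2 controls, 59.1 and 56.9 on gemcitabine, 61.7 and 67.8 on genistein and 64.8 and 51.5 on both. The group given both drugs spanned all of the gemcitabine libraries and reached into the genistein ones. Its log2 change with added gemcitabine was -0.37 ± 0.09 in Mia-PaCa-2 (adjusted p = 0.00732), under the fold limit, and -0.30 ± 0.14 in PANC-1 (adjusted p = 0.205). In Mia-PaCa-2 MAT2B passed without genistein replicate 1 (-0.44, adjusted p = 0.00944) or replicate 1 of both drugs (-0.50, adjusted p = 0.000538), and was at -0.14 with a correction for GC content. In PANC-1 its 8 libraries ran from 37.2 to 50.1 FPKM. AHCY (chr20:32868074-32899608, minus strand) had log2 changes of -0.11 ± 0.08 (adjusted p = 0.304) and -0.11 ± 0.15 (adjusted p = 0.679), the first being -0.30 with a correction for GC content (adjusted p = 0.000615). Neither gene's response was shown to differ between the lines (log2 differences 0.04 ± 0.15, adjusted p = 0.908, and -0.03 ± 0.20, adjusted p = 0.948).

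**Figure D4:**
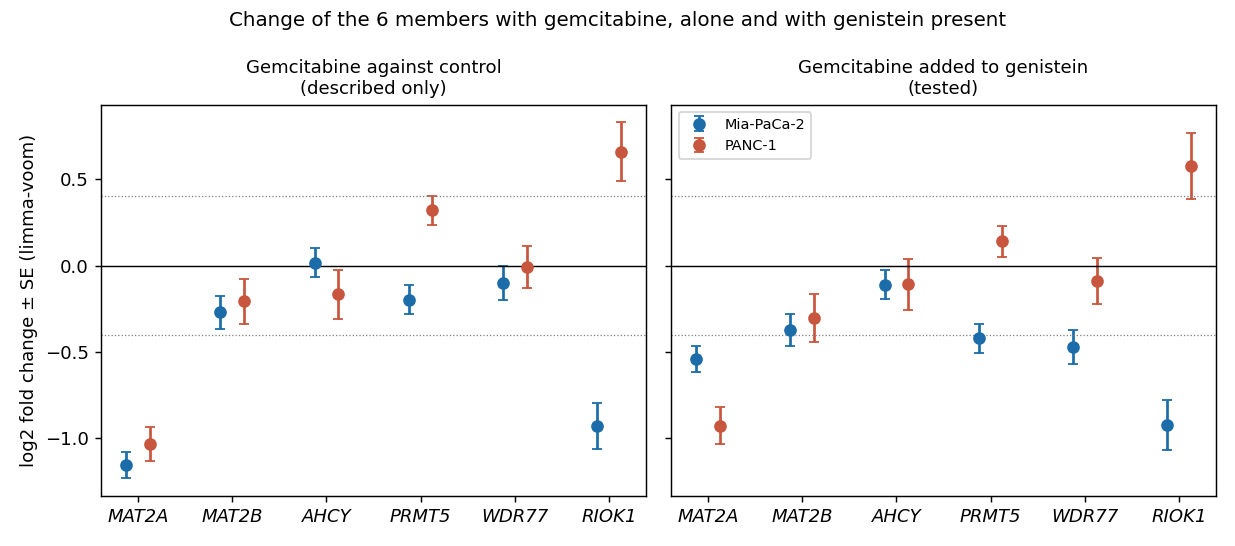
log2 fold changes (points) with their standard errors (bars) of 6 members in each line, for gemcitabine against control, which chose the set, and for gemcitabine added to genistein, with dotted lines at the fold limit of 0.4. MAT2A is below 0 in all 4 cases, and RIOK1 is at -0.92 in Mia-PaCa-2 and 0.58 in PANC-1 when gemcitabine was added to genistein.

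On genistein alone, no member tested passed in either line. In Mia-PaCa-2, 0 of the 5 members other than MAT2A passed, where 8.31% of genes did. Of these 5, 4 had an unadjusted p under 0.05, and edgeR and DESeq2 passed 0 as well. The share of all genes at that unadjusted limit was not computed, so the 4 cannot be weighed against it. AHCY and PRMT5 had an adjusted p under 0.05, as did 11.4% of genes, and fell short of the fold limit, at log2 changes of 0.31 ± 0.08 (adjusted p = 0.032) and 0.31 ± 0.08 (adjusted p = 0.0331), with adjusted p up to 0.213 and 0.243 when a library was left out. AHCY was at 312 and 319 FPKM in Mia-PaCa-2 controls and at 402 and 370 on genistein, so the groups did not overlap. WDR77 had 0.28 ± 0.10 (adjusted p = 0.0812), RIOK1 had -0.37 ± 0.13 (adjusted p = 0.0799) and MAT2B had 0.03 ± 0.09 (adjusted p = 0.87), or 0.33 with a correction for GC content (adjusted p = 0.00747). RIOK1 passed without Mia-PaCa-2 genistein replicate 2 (log2 change -0.56, adjusted p = 0.049).

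In PANC-1, 0 of the 5 passed on genistein, where 0.0591% of genes did, with 0 at an unadjusted p under 0.05 and 0 by edgeR or DESeq2, and the largest log2 change was 0.25 in size (MAT2B). The difference between the lines passed for 0 of 5, where 0.0336% of genes did, again with 0 at an unadjusted p under 0.05 and 0 by either other tool. Genistein added to gemcitabine also left 0 of 5 past the limits. In Mia-PaCa-2, where 5.88% of genes passed, 0 of 5 passed by edgeR or DESeq2, and the largest log2 change was 0.365 in size (RIOK1). Of the 5, 2 had an unadjusted p under 0.05, again with no share of all genes computed to set beside them. In PANC-1, where 0.0177% of genes passed, 0 had an unadjusted p under 0.05, 0 passed by either other tool, and the largest log2 change was 0.21 in size (AHCY).

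The untreated lines differed in AHCY and MAT2B. AHCY was at 167 and 135 FPKM in PANC-1 controls, 2.18-fold lower than in Mia-PaCa-2 (log2 difference -1.13 ± 0.14, adjusted p = 8.06e-06). MAT2B was at 38.2 and 46.6 FPKM in PANC-1 controls, 1.66-fold lower (-0.73 ± 0.10, adjusted p = 2.31e-05). These were 2 of the 5 members tested, where 52.3% of 17863 genes passed. WDR77 was higher in PANC-1 by 0.31 ± 0.12 (adjusted p = 0.0357), under the fold limit, and depended on the libraries: it was 0.51 without PANC-1 control replicate 2 (adjusted p = 0.00159), 0.12 without PANC-1 control replicate 1 (adjusted p = 0.369) and 0.0291 with a GC correction and replicate block (adjusted p = 0.833). PRMT5 at 0.16 ± 0.09 (adjusted p = 0.16) and RIOK1 at 0.04 ± 0.14 (adjusted p = 0.824) did not pass, and MAT2A differed by -0.51 ± 0.08 with no test made. In such bulk RNA, fewer cells of a kind and less RNA per cell cannot be told apart.

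The surrounding pathways were described with 8 lists of 72 genes. When gemcitabine was added to genistein in Mia-PaCa-2, 27 of the 65 measured passed, 9 higher and 18 lower, where 31.5% of all genes passed, 16.6% higher and 14.9% lower. The other arginine methyltransferases had 0 higher and 3 lower of 6, with PRMT1 at -0.55 ± 0.10, CARM1 at -0.53 ± 0.09 and PRMT3 at -0.69 ± 0.12, and a list median of -0.36 where the median of all genes was -0.01. Partners and substrates of PRMT5 had 0 higher and 4 lower of 12, where 31.5% of all genes passed in either direction and 14.9% lower. Their median was -0.34, and the list as a whole was not tested. The 4 were GEMIN2 and GEMIN5 of the SMN complex, the Sm protein SNRPD1 and nucleolin (NCL), at -0.80, -0.56, -0.66 and -0.71. GEMIN2 lost its call on the FPKM scales (adjusted p = 0.0617 and 0.0608).

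Regulators of MAT2A mRNA had 0 higher and 3 lower of 8 in Mia-PaCa-2, where 31.5% of all genes passed in either direction and 14.9% lower. Their median was -0.35, and this list was not tested as a whole. Named here are the 3 that passed. They were METTL16, METTL14 of the main adenosine methyltransferase complex, and YTHDC1, a nuclear reader of methylated adenosine. METTL16 was at 15.3 and 18.4 FPKM on genistein and 13.2 and 10.2 on both in Mia-PaCa-2, and its counts fell by 0.64 ± 0.11 (log2, adjusted p = 0.000826). On the log2(FPKM + 1) scale none of the 3 passed, with adjusted p = 0.0803 for METTL16, 0.204 for METTL14 and 0.158 for YTHDC1. METTL14 also lost its call without genistein replicate 2 (adjusted p = 0.08) or replicate 2 of both drugs (adjusted p = 0.0567), and YTHDC1 fell short of the fold limit with library size alone (-0.39) and with the GC correction (-0.31). In PANC-1, 0 of the 8 passed by limma-voom and their median was -0.04. The genes of these 3 lists were named because so few passed, after their values were seen.

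The remaining lists moved both ways in Mia-PaCa-2, where 16.6% of all genes passed higher and 14.9% lower. Of the methionine cycle 3 of 7 were higher and 1 lower, of folate one-carbon metabolism 2 of 8 were higher and 2 lower, of polyamine metabolism 3 of 10 were higher and 3 lower, of methionine salvage 0 of 5 were higher and 2 lower, and of the other SAM-consuming enzymes 1 of 9 was higher and 0 lower. CTH, which makes cysteine from cystathionine, was at 8.83 and 7.73 FPKM on genistein and at 15.0 and 16.3 on both. It rose by 0.69 ± 0.13 (log2, adjusted p = 0.000966). PAOX and SAT1, which break down polyamines, rose by 1.295 ± 0.16 (adjusted p = 6.46e-05) and 0.40 ± 0.08 (adjusted p = 0.00178). SAT1 lay on the fold limit and fell below it without any 1 of 5 libraries, at 0.37 without replicate 1 of both drugs, 0.38 without genistein replicate 1 and 0.3975 to 0.3991 without either control or gemcitabine replicate 2. CTH, PAOX and SAT1 also rose when genistein was added to gemcitabine in Mia-PaCa-2, by 0.50 ± 0.12 (adjusted p = 0.0294), 0.61 ± 0.15 (adjusted p = 0.0274) and 0.63 ± 0.08 (adjusted p = 0.00109) in that order, a comparison that shares the libraries given both drugs. CTH lost this call with DESeq2 (adjusted p = 0.0501), with a replicate block (0.0638), on the FPKM scales (0.212 and 0.228) and without any 1 control or gemcitabine library (0.056 to 0.184). PAOX lost it on the FPKM scales (0.173 and 0.196) and without any 1 control or gemcitabine library or replicate 2 of both drugs (0.0536 to 0.209), and SAT1 lost it on the FPKM scales (0.0574 and 0.0772). PAOX was at 12.1 and 15.8 FPKM in those libraries and at 3.30 and 3.39 in controls.

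**Figure D5:**
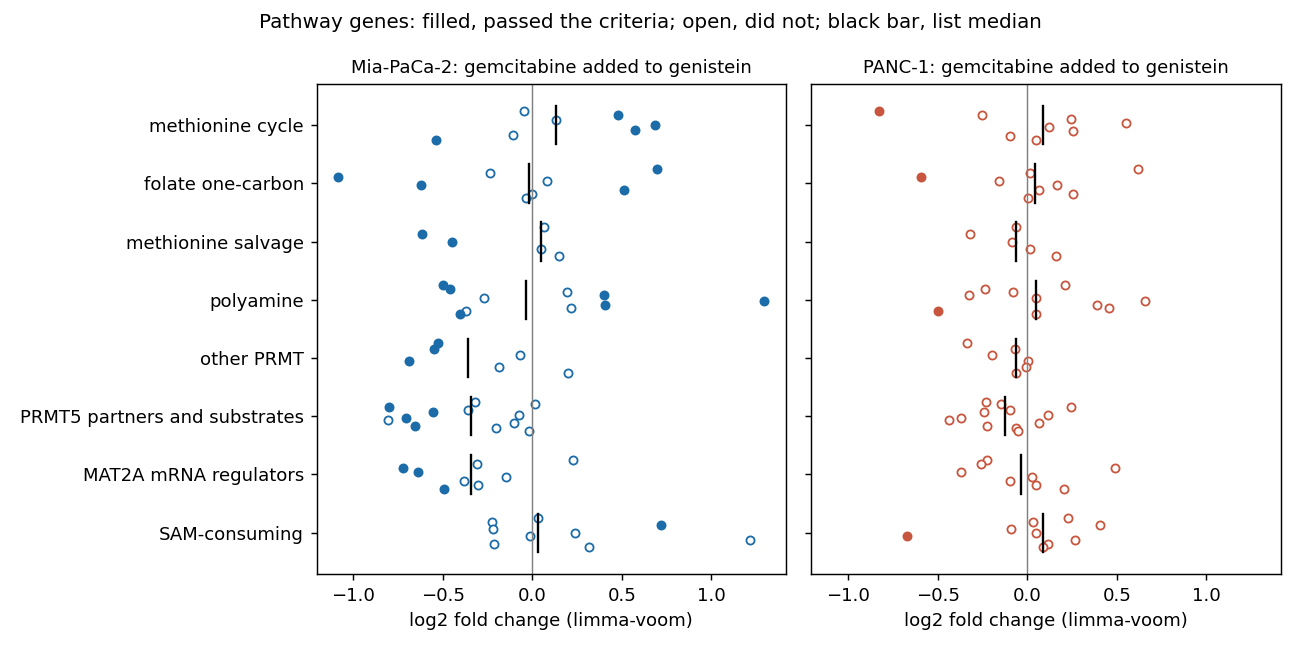
log2 fold change of each measured gene of the 8 pathway lists when gemcitabine was added to genistein, in Mia-PaCa-2 and PANC-1 (filled, passed; open, did not), with the median of each list as a black bar. In Mia-PaCa-2 the medians of other PRMTs, PRMT5 partners and MAT2A regulators lie at -0.36 to -0.34, and in PANC-1 4 of 66 genes passed, all lower.

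In PANC-1, 4 of the 66 measured pathway genes passed, 0 higher and 4 lower, where 8.18% of all genes passed, with a median of 0.00 over the 66 and over all genes. MTHFD1L, a mitochondrial formate-producing enzyme of one-carbon metabolism, was the 1 pathway gene that passed in both lines. It fell by 1.09 ± 0.11 in Mia-PaCa-2 (log2, adjusted p = 1.19e-05), where its level was 22.2 and 22.5 FPKM on genistein and 14.6 and 12.7 on both. In PANC-1 its counts fell by 0.59 ± 0.10 (adjusted p = 0.0136), but its FPKM did not follow, at 66.7 and 62.1 on genistein and 64.6 and 64.3 on both. The others were AHCYL1, a relative of AHCY (-0.83 ± 0.08, adjusted p = 0.00237), LCMT1, which methylates protein phosphatase 2A (-0.67 ± 0.14, adjusted p = 0.0268), and spermine synthase, SMS (-0.50 ± 0.12, adjusted p = 0.0466). All 4 lost their call without either PANC-1 genistein library, with adjusted p from 0.0589 for AHCYL1 to 0.292 for SMS. MTHFD1L also lost it without replicate 2 of both drugs (adjusted p = 0.065). LCMT1 and SMS lost it without any 1 of the PANC-1 libraries given a drug, with a replicate block (adjusted p = 0.066 and 0.0817) and on the FPKM scales (0.263 and 0.126 with a pseudocount of 1), and SMS with library size alone (0.137).

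The genes most like MAT2A were found from log2 CPM centred on the mean of each line, over 16 libraries and 17862 genes. Pearson's r was 0.99 for DDX17, 0.96 for CCNB1, 0.96 for HSP90AB1, 0.96 for PABPC1 and 0.96 for DSTN. The most opposite were RFC2 at -0.97, PSMC3IP at -0.96 and IQCC at -0.96. Among the members, MAT2B had 0.74, WDR77 0.35, AHCY 0.11, RIOK1 0.10 and PRMT5 -0.11. By Spearman's rho, 2 of the 8 genes named first were again among the 5 highest and 3 lowest. These are descriptions over libraries that share treatment and line.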

How the data were processed

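Poly-A RNA of 16 libraries (TruSeq Stranded mRNA) was read as single reads by the authors, mapped to GRCh37 with TopHat2 2.0.4, cleared of reads with several alignments with Picard 1.29 and counted per gene with HTSeq 0.6.1. The authors deposited these counts without normalization, and FPKM per gene and per isoform from Cufflinks 2.1.1, which are scaled to length and depth. The annotation release, the strand setting and the counting mode are not given in the sources used here. Libraries were grouped by the labels.

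Counts were scaled by TMM (edgeR 4.0.16), filtered with filterByExpr and fitted by limma-voom, with limma 3.58.1 under R 4.3.3, over the 8 libraries of a line, or all 16 between lines, with Benjamini-Hochberg adjustment over all genes tested (16064, 16909 and 17863). To pass, a gene needed an adjusted p no higher than 0.05, a log2 change of 0.4 or more in either direction and a mean above 1 FPKM in the treated group (in either line for the untreated comparison), and differences between lines needed the adjusted p alone. Errors are standard errors unless marked SD. The fitting code was tested on simulated data. With 2 libraries per group p-values rest on a spread shared across genes. Repeated identifiers in the FPKM table, 128 of them, were summed. Gene positions, overlaps, untranslated regions and sequences came from GENCODE v44 lifted to GRCh37, since the FPKM table holds no positions. Its gene models may differ from those the authors counted.

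Named genes were the 9 members, pathway genes that passed the same comparison in both lines or both comparisons of the combination in a line, and the 5 genes highest and 3 lowest in correlation with MAT2A. A gene that met this rule is not reported here. Groups of at most 5 passing genes were also named after their values were seen. The members and lists were chosen with earlier results of these data known. Alternatives were edgeR quasi-likelihood, DESeq2 1.42.0, its size factors, library size alone, no filter, limma-trend on log2(FPKM + 1) and log2(FPKM + 0.1), other sets of libraries, a replicate block, a loess correction for GC content (values for 98.1% and 98% of genes), an adjusted p of at most 0.01, the adjusted p alone, and leaving out each library. Levels as CPM per kilobase of the canonical transcript were added after seeing the data.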

Additional observations from a re-analysis of the deposited data

Results flagged for a closer look

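The response to gemcitabine added to genistein was compared between the lines by an interaction test (limma-voom over 16 libraries, log2 change in PANC-1 minus that in Mia-PaCa-2). It differed for 3 of the 6 members and for 7 of the 66 measured pathway genes, 2 higher and 5 lower, where 8.8% of all 17863 genes differed. Of these 7 pathway genes, only AHCYL1 and LCMT1 are described here. The difference was 1.47 ± 0.23 for RIOK1 (adjusted p = 0.00175), 0.53 ± 0.13 for PRMT5 (adjusted p = 0.0274) and -0.42 ± 0.12 for MAT2A (adjusted p = 0.0441). AHCYL1 differed by -0.81 ± 0.10 (adjusted p = 0.000339), with -0.83 in PANC-1 and -0.05 in Mia-PaCa-2. LCMT1 differed by -0.68 ± 0.18 (adjusted p = 0.0295), with -0.67 in PANC-1 and -0.02 in Mia-PaCa-2. With a replicate block the calls of PRMT5 (adjusted p = 0.0618), MAT2A (0.0912) and LCMT1 (0.0717) were lost. That of LCMT1 was also lost without a low-count filter (0.0607), on the FPKM scales (-0.39, adjusted p = 0.423 and 0.44) and without most single libraries (adjusted p up to 0.146, without Mia-PaCa-2 genistein replicate 2), and that of AHCYL1 on the log2(FPKM + 0.1) scale (0.0543). Groups of 2 libraries are too small for a test of single outlying libraries.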

How the results depend on the processing

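When gemcitabine was added to genistein, 4 members passed in Mia-PaCa-2, against 2 with library size alone and 2 on either FPKM scale, where PRMT5 and WDR77 fell short of the fold limit; leaving out each library gave 4 to 5. In PANC-1, 1 passed, against 2 with DESeq2, the GC correction, the GC correction with a replicate block, or all 16 libraries in one model, RIOK1 being the addition; leaving out each library gave 0 to 2. The difference between lines passed for 3 members, for 1 at an adjusted p of at most 0.01, and for 1 to 3 with a library left out. Genistein against control in Mia-PaCa-2 gave 0, against 2 by the adjusted p alone and 0 to 1 with a library left out. Replicates with the same number showed no common deviation over the groups (median r -0.09 in Mia-PaCa-2, from -0.298 to 0.155, and 0.005 in PANC-1, from -0.576 to 0.339). With 2 replicates per group, the r of -0.576 means that replicate 1 of a PANC-1 group moved with replicate 2 of another. A block by replicate number does not take up such a shared deviation. The block moved the count of members differing between lines from 3 to 1 and left the other counts of members as they were (4 and 1 with gemcitabine added to genistein).

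Directions turned for these changes (log2), of which that of MTHFD1L had passed. With gemcitabine added to genistein in Mia-PaCa-2, library size alone gave 0.0017 for AHCY, 0.0605 for AHCYL1 and 0.0937 for LCMT1. The FPKM scales gave 0.0251 and 0.0255 for AHCYL1 and 0.0649 and 0.0655 for LCMT1, one model of 16 libraries gave 0.0295 for LCMT1, and leaving out libraries gave -0.12 to 0.0455 for AHCYL1 and -0.065 to 0.0111 for LCMT1. In PANC-1, library size alone gave 0.0564 for WDR77 and 0.0378 for AHCY, the FPKM scales gave 0.0802 and 0.081 for WDR77, 0.0631 and 0.0634 for AHCY and 0.0014 for MTHFD1L, and leaving out libraries gave -0.24 to 0.0148 for AHCY. MAT2B on genistein in Mia-PaCa-2 was at -0.0038 with library size alone, -0.0905 and -0.0917 on the FPKM scales and -0.0345 to 0.0925 with a library left out. Between untreated lines, PRMT5 was at -0.13 with the GC correction and -0.11 with the block added, and RIOK1 ran from -0.15 to 0.18 with a library left out. The difference between lines was -0.16 for MAT2B with the GC correction, with and without the block, and -0.0611 to 0.14 with a library left out. For AHCY it was 0.0328 with library size alone, 0.0222 without the filter, 0.0715 and 0.0719 on the FPKM scales, 0.17 with the GC correction, with and without the block, and -0.18 to 0.15 with a library left out. With library size alone the median of all genes reached 0.149 (log2, gemcitabine added to genistein in PANC-1), where it was 0.003 with TMM. The cause of these changes was not tested. Of 687 values of members under an alternative, 600 kept direction and call, 38 lost and 16 gained a call and 33 turned. Of 562 values of the other pathway genes named, 461 kept both, 90 lost the call and 11 turned. MTAP, CDKN2A and CDKN2B were limited by depth, as given with their counts.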
